A study of Triticum aestivum with 4 samples.

Results

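The copper miRNAs described here were the entries of the families miR397, miR398, miR408 and miR528 in the deposited table of known miRNAs from winter wheat leaves. They were chosen by family name, with every entry of the 4 families taken, which gave 8 miRNAs of the 371 known ones: miR397-3p, miR397-5p and miR397a, miR398a-3p and miR398f-5p, miR408d, and miR528-5p and miR528a-3p. A table of 82 predicted miRNAs was also examined for their sequences. The study followed miRNAs of leaves through cold acclimation and the change from vegetative to reproductive growth. All plants were untreated wild-type wheat (Triticum aestivum) of the cultivar Shimai 22, sown in the field in October. Their uppermost fully expanded leaves were sampled in the early afternoon at the three-leaf stage (October), the winter dormancy stage (January), the spring green-up stage (March) and the jointing stage (April), when the stem begins to elongate. RNA of 3 biological replicates was pooled into 1 small RNA library per stage. Variation among plants is therefore not measured here, and no difference between libraries is checked by a replicate library. The tables hold only miRNAs, so the leaf origin of the libraries could not be checked with leaf marker genes. Because each library comes from whole leaves, fewer cells of a type and less RNA per cell cannot be told apart.

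Plant miRNAs pair almost perfectly with their target transcripts and lead to their cleavage or to reduced translation. The families here are called copper miRNAs because most of their known targets encode copper proteins. In Arabidopsis, miR397, miR398 and miR408 accumulate when copper is scarce, through the transcription factor SPL7, and the dispensable copper proteins are then made in smaller amounts. miR397 targets laccases, the copper oxidases that polymerize lignin monomers, and miR398 targets Cu/Zn superoxide dismutases and the copper chaperone that loads them. miR408 targets plantacyanin-type blue copper proteins and laccases, and in wheat also the clock gene TOC1. miR528 is found in monocots, and in rice it targets an ascorbate oxidase and the flowering gene RFI2. Apart from its role in copper supply, the superoxide dismutase target of miR398 links this family to oxidative and cold stress.

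The mature sequences are shown because the families are defined by them and because several results turn on near-identical or paired sequences. They are written 5′ to 3′ as the study's supplementary list of known miRNAs gives them, with the seed (bases 2 to 8) in capitals.
miR397a: uUGAGUGCagcguugaugaac
miR397-3p: uCACCGGCgcugcacacaauu
miR397-5p: uCACCGGCgcugcacacaaug
miR398a-3p: uGUGUUCUcaggucgcccccg
miR398f-5p: aGGGUCGAacugagaacacau
miR408d: uGCACUGCcucuucccuggc
miR528-5p: uGGAAGGGgcaugcagaggag
miR528a-3p: cCUGUGCCugccucuuccauu
miR408d was 20 nt long and the other 7 members were 21 nt long. A U stood at the 5′ end of 6 of the 8 members (75%), and of 158 of the 371 known miRNAs (42.6%). The 8 members had 7 distinct seeds. The seed CACCGGC was shared by miR397-3p and miR397-5p, and no other known miRNA carried a seed of a member.

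miR397-3p and miR397-5p, although named for opposite arms of a hairpin, were the same sequence apart from the last base. Counted from 1 at the 5′ end, the difference was U21G, with the base of miR397-3p first, and the other 20 bases were identical. miR397a paired with each of them over 19 opposed positions, of which 15 were Watson-Crick pairs and 2 were G-U pairs, and each strand overhung by 2 bases at its 3′ end. miR528-5p paired with miR528a-3p in the same geometry, with 16 Watson-Crick pairs and 1 G-U pair over 19 positions. miR398f-5p and miR398a-3p paired with 17 Watson-Crick pairs over 20 positions and 3′ overhangs of 1 base. By sequence, then, miR397-3p and miR397-5p both lay opposite miR397a, and the other families were represented by 1 strand (miR408) or by 1 sequence from each strand (miR398 and miR528).

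A precursor that matched the miR398 sequences with at most 2 mismatches was present among the predicted miRNAs. It belonged to novel_miR692 and was placed at chr3B:663360013-663360132 on the minus strand of the Chinese Spring genome in Ensembl Plants release 31. It is shown 5′ to 3′ in DNA letters, with the stretches that match miR398f-5p and miR398a-3p in capitals, because it is the only one of the 82 predicted precursors in which a member was found with at most 2 mismatches.
novel_miR692 precursor: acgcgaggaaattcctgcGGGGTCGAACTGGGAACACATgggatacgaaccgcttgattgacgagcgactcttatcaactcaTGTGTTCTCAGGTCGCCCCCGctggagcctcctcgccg
miR398a-3p matched this 120-nt precursor without mismatch at positions 83 to 103. miR398f-5p matched at positions 19 to 39 with 2 mismatches, A1G and A13G, with the base of miR398f-5p first and positions counted from its 5′ end. The sequence listed for novel_miR692 itself, tcaggtcgcccccgctggagc, lay at positions 90 to 110 and overlapped the miR398a-3p stretch by 14 nt. Its listed star strand, tcctgcggggtcgaactggga, lay at positions 13 to 33 and overlapped the miR398f-5p stretch by 15 nt. The hairpin therefore held an exact miR398a-3p beside a predicted miRNA shifted by several bases on the same strand.

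**Figure D1:**
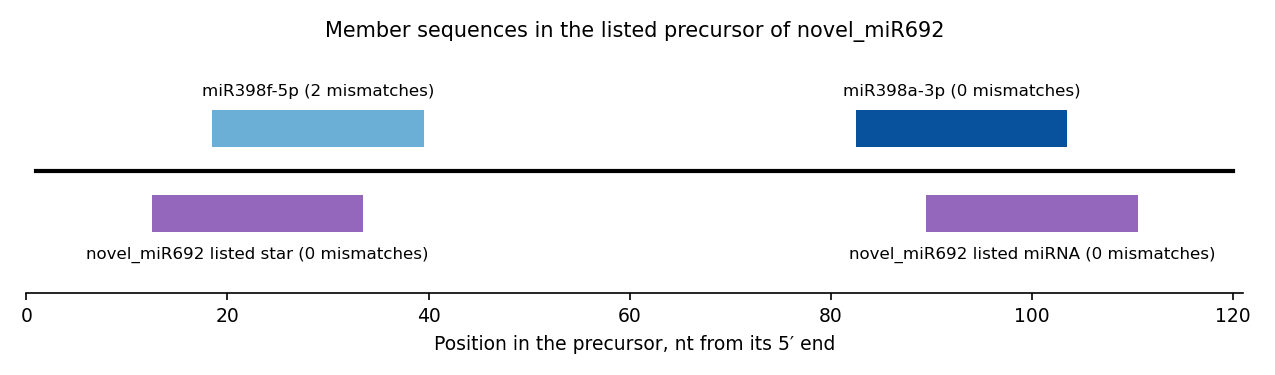
Positions of the member sequences in the listed precursor of novel_miR692 (x axis, nucleotides from its 5′ end), with the miR398 members above the line and the listed strands of novel_miR692 below it. miR398a-3p spans positions 83 to 103 and miR398f-5p spans positions 19 to 39 with 2 mismatches, and both overlap the strands listed for novel_miR692.

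The libraries held about 18100000 to 21800000 mapped reads, and 1 read was worth 0.0458 to 0.0552 tags per 1000000 mapped reads (TPM). Of the 371 known miRNAs, 240 to 294 were listed above 0 in a library. The smallest value listed was 0.3 to 0.5 TPM, or 6 to 11 reads, so a listed 0 may stand for a few reads and no fold against it is given. Reads were estimated as TPM times mapped reads, and intervals are exact 95% intervals on these reads. They compare libraries and not stages, and they cover counting error only, because PCR copies are not independent molecules. A miRNA was counted as higher or lower when its levels in the libraries compared were over 2-fold apart and the larger one was above 5 TPM, and a listed 0 was raised to 3 reads for this count only.

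All 4 families had their highest summed level in the jointing library. The 8 members together reached 150.8 TPM in three-leaf leaves, 187.7 TPM at winter dormancy, 345.5 TPM at spring green-up and 957.3 TPM at jointing. Each step up was larger than counting error, at 1.24-fold (95% interval 1.19 to 1.31), 1.84-fold (1.77 to 1.92) and 2.77-fold (2.69 to 2.85). They were a small part of all known miRNAs, taking 0.079% of the total over known miRNAs in three-leaf leaves, 0.0829% at winter dormancy, 0.178% at green-up and 0.543% at jointing. Of the members, 5 of 8 (62.5%) were above 0 in every library, against 179 of 371 known miRNAs (48.2%). The exceptions were the 3 miR397 entries.

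The make-up of this sum differed between the libraries. miR398 held 75.1% of it at the three-leaf stage, 63.7% at winter dormancy, 54.8% at green-up and 37.7% at jointing. miR528 held 14.8%, 26.3%, 34.5% and 53.1% at the same stages. miR397, summed over the names of both strands, stayed between 8.65% and 10.1%. Its winter share was all miR397-5p, with miR397a listed at 0. miR408 was at or below 0.928% throughout. The leading family was thus miR398 in the 3 earlier libraries and miR528 in the jointing library.

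**Figure D2:**
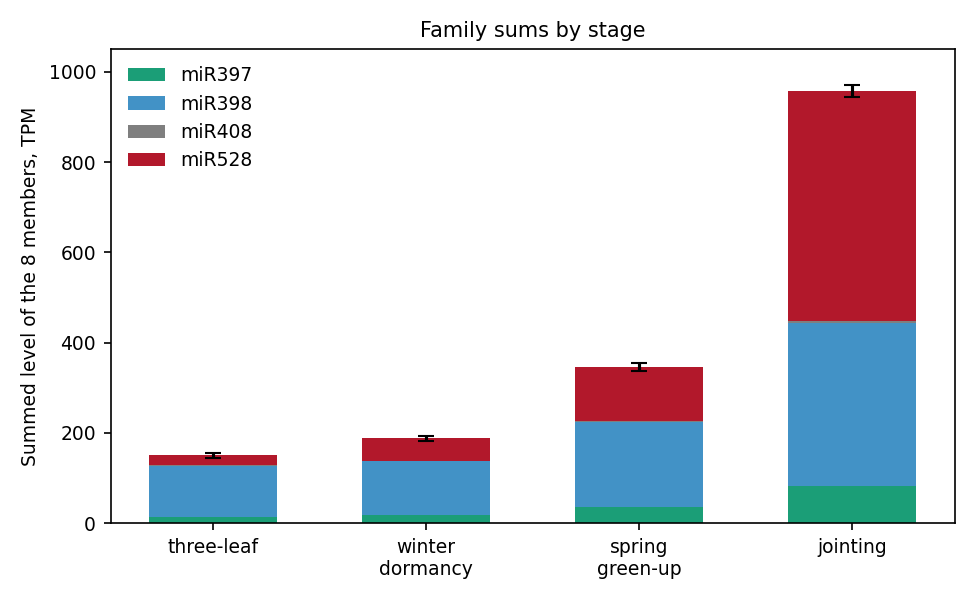
Summed level of the 8 members in TPM (y axis, starting at 0) in the 4 libraries, stacked by family, with the 95% counting interval of the whole sum as the bar. The sum is 150.8 TPM in three-leaf leaves and 957.3 TPM at jointing, where miR528 makes up 53.1% of it, and miR408, at 0.8 to 5.6 TPM, is too small to be seen.

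miR528-5p, the strand that targets ascorbate oxidase in rice, showed the widest span of level in TPM among the members. It was listed at 19.0 TPM in three-leaf leaves, 44.4 TPM at winter dormancy, 114.4 TPM at green-up and 426.7 TPM at jointing. The level was higher in each library than in the one before it, and no 2 of the intervals overlapped. The step from three-leaf to winter dormancy was 2.34-fold (2.07 to 2.64), the next was 2.58-fold (2.38 to 2.79) and the last was 3.73-fold (3.56 to 3.91). Across the whole series the jointing library exceeded the three-leaf library 22.5-fold (20.3 to 24.9). By level, miR528-5p moved from rank 142 of the 371 known miRNAs at the three-leaf stage to 108, 66 and then 35 at jointing. Its winter fold ranked 5 among the 212 known miRNAs above 0 in both of those libraries. Scaled by the total of all listed known miRNAs, which shifts every winter against three-leaf comparison by -0.25 on the log2 scale, its log2 fold of 1.22 became 0.98, under the 2-fold limit.

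miR528a-3p, the opposite strand of the family, followed another course before jointing. Its levels were 3.3 TPM in three-leaf leaves, 5.0 TPM at winter dormancy, 4.9 TPM at green-up and 81.7 TPM at jointing. The first 3 libraries lay close together and the jointing library lay far above them. Winter dormancy exceeded the three-leaf stage 1.52-fold (1.11 to 2.1), and green-up and winter dormancy could not be told apart by counting, with a ratio of 0.98 (0.729 to 1.31). The jointing library exceeded the green-up library 16.7-fold (13.4 to 20.8) and the three-leaf library 24.8-fold (19.4 to 32.1). The log2 difference between green-up and winter dormancy was -0.03, and it was 0.2 when scaled by the total and 0.07 by median-of-ratios scaling.

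The balance between the miR528 strands, which does not depend on the scaling between libraries, went up and then down. miR528-5p held 85.2% (81.6 to 88.4) of the reads of both strands at the three-leaf stage, 89.9% (87.8 to 91.6) at winter dormancy, 95.9% (95 to 96.7) at green-up and 83.9% (83.2 to 84.6) at jointing. In ratios of 5p to 3p these shares were 5.76, 8.88, 23.3 and 5.22. The odds of a read being miR528-5p were 1.54 times (1.09 to 2.16) those of the three-leaf library at winter dormancy, and green-up stood 2.63 times (1.94 to 3.57) above winter dormancy. From green-up to jointing they were 4.46 times (3.59 to 5.62) lower. The three-leaf and jointing libraries did not differ in this share beyond counting error, with an odds ratio of 0.906 (0.685 to 1.18). Green-up was thus the library with the highest 5p share: there miR528-5p stood 6.02-fold (5.4 to 6.73) above the three-leaf library and miR528a-3p 1.48-fold (1.07 to 2.07).

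**Figure D3:**
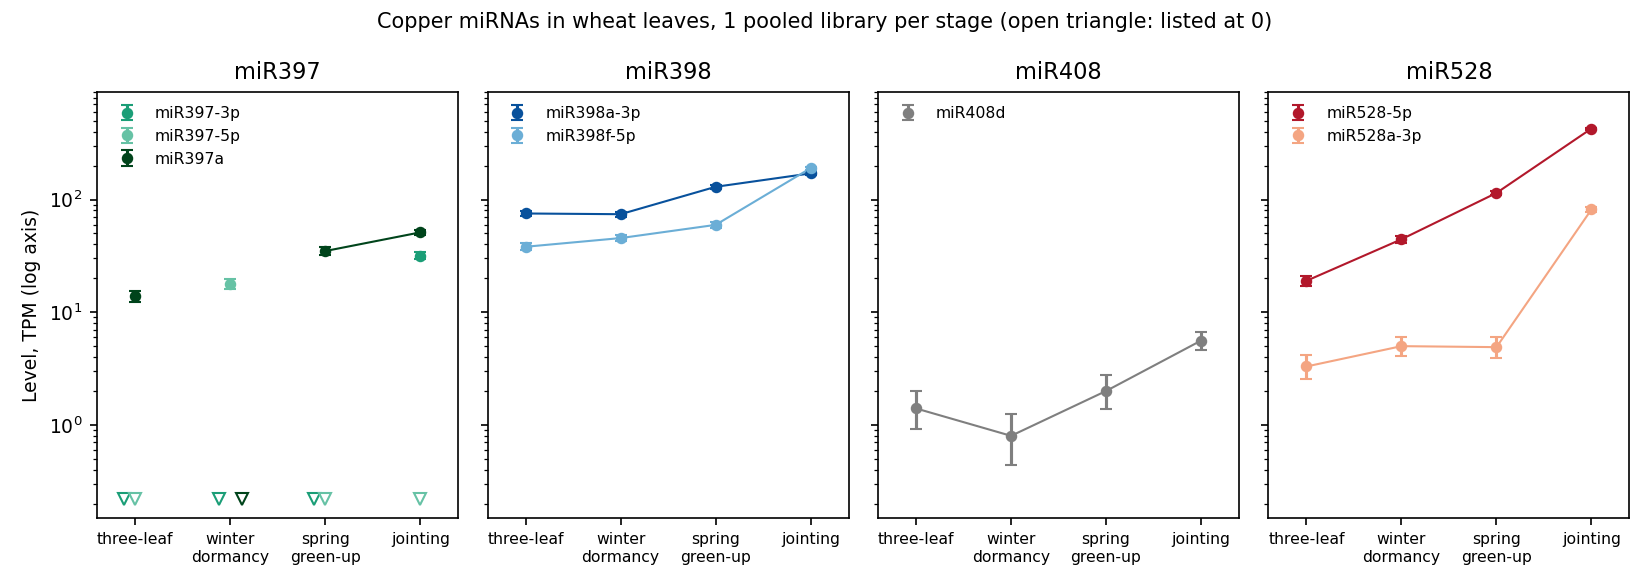
Level of each member in TPM (y axis, log scale) in the 4 libraries (x axis), 1 panel per family, with 95% counting intervals as bars and open triangles for entries listed at 0. miR528-5p climbs from 19.0 to 426.7 TPM through every library, miR528a-3p stays at 3.3 to 5.0 TPM until jointing, and the miR397 names alternate between values and listed zeros.

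miR398a-3p, the strand that targets Cu/Zn superoxide dismutases, had the highest level of the 8 members in the 3 earlier libraries. It was listed at 75.2 TPM in three-leaf leaves, 74.1 TPM at winter dormancy, 129.7 TPM at green-up and 170.6 TPM at jointing. The autumn and winter libraries could not be told apart by counting, with a ratio of 0.985 (0.917 to 1.06), so the order of levels was jointing, green-up, and then the other two. Green-up exceeded winter dormancy 1.75-fold (1.64 to 1.87), and jointing exceeded green-up 1.32-fold (1.25 to 1.39). Neither step passed the 2-fold limit, but jointing passed it against the three-leaf library at 2.27-fold (2.14 to 2.41) and against winter dormancy at 2.3-fold (2.17 to 2.44). Scaled by the total of the known miRNAs, the log2 difference between green-up and winter dormancy was 1.03 in place of 0.81, just past the limit.

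miR398f-5p, from the other strand, was below miR398a-3p in the first 3 libraries and above it at jointing. Its levels were 38.1 TPM in three-leaf leaves, 45.5 TPM at winter dormancy, 59.6 TPM at green-up and 189.9 TPM at jointing. The first 3 values stepped up by small amounts, 1.19-fold (1.09 to 1.32) and 1.31-fold (1.2 to 1.43), and the jointing value stood well above them. Jointing exceeded green-up 3.19-fold (2.98 to 3.41) and the three-leaf library 4.98-fold (4.62 to 5.39). When scaled by the total, the log2 difference of 0.26 between winter dormancy and three-leaf became 0.01.

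At jointing the miR398 strands changed places. The share of miR398f-5p in both strands was 33.6% (31.7 to 35.6) at the three-leaf stage, 38.0% (36.1 to 40.0) at winter dormancy, 31.5% (29.9 to 33.1) at green-up and 52.7% (51.6 to 53.8) at jointing. miR398a-3p outnumbered it 1.97, 1.63 and 2.18 times in the first 3 libraries, and the ratio was 0.898 at jointing. The odds of miR398f-5p rose 2.42 times (2.23 to 2.64) from green-up to jointing. The three-leaf and green-up libraries did not differ in this share beyond counting error, with an odds ratio of 0.907 (0.81 to 1.02). From green-up to jointing the strand balance of the 2 families thus shifted in opposite directions. It went towards the 5p name in miR398 and towards the 3p name in miR528. The jointing and three-leaf libraries did not differ in the miR528 share beyond counting error, with an odds ratio of 0.906 (0.685 to 1.18). Whether both names of a family come from the same gene copies was not tested.

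**Figure D4:**
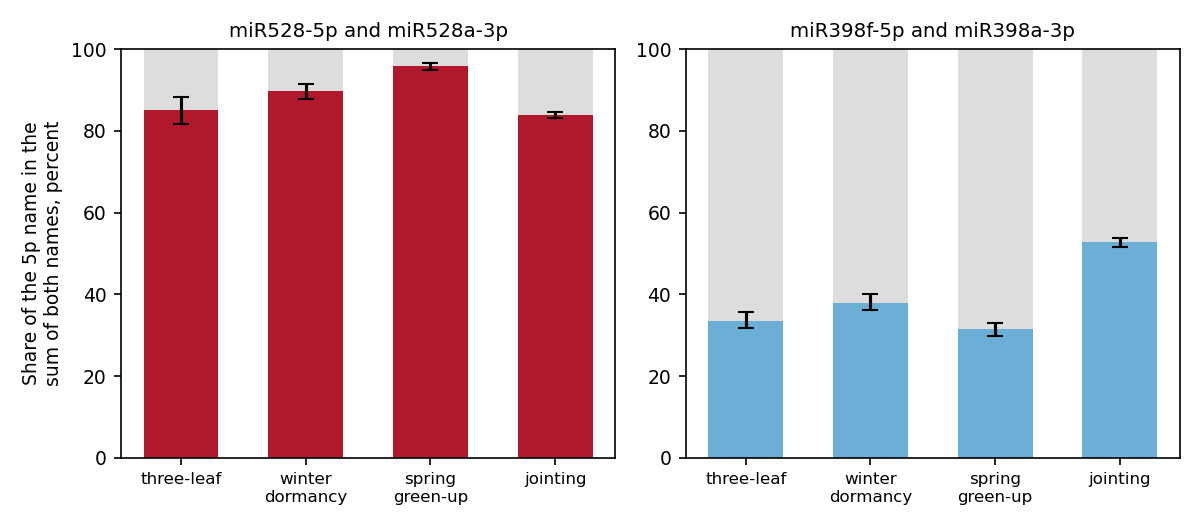
Share of the 5p name in the sum of the 5p and 3p names, in percent (y axis from 0 to 100), in the 4 libraries, for miR528 (left) and miR398 (right), with the 3p name as the grey remainder and exact 95% intervals as bars. miR528-5p peaks at 95.9% at green-up and is 83.9% at jointing, and miR398f-5p passes 50% only at jointing, at 52.7%.

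Summed over its strands, miR398 was at 113.3, 119.6, 189.3 and 360.5 TPM in stage order. Winter dormancy and three-leaf were again not told apart, at 1.06-fold (0.997 to 1.12). The step from green-up to jointing was 1.9-fold (1.83 to 1.98), under the 2-fold limit that miR398f-5p passed alone. For miR528 the sum gave 22.3, 49.4, 119.3 and 508.4 TPM. Here jointing exceeded the three-leaf library 22.8-fold (20.7 to 25.1), against 3.18-fold (3.04 to 3.33) for miR398.

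novel_miR692, the predicted miRNA whose precursor matches miR398a-3p exactly and miR398f-5p with 2 mismatches, was far less abundant than either miR398 strand. It was listed at 0.6 TPM in three-leaf leaves, 0.3 TPM at winter dormancy, 0 at green-up and 6.5 TPM at jointing. The three-leaf and winter values rested on 12 and 6 reads and could not be told apart, and the jointing value rested on 142 reads. Jointing exceeded the three-leaf library 10.8-fold (6.11 to 21.8). The green-up library, with 129.7 TPM of miR398a-3p, listed novel_miR692 at 0.

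miR397a, of the family that targets laccases, was listed in 3 of the 4 libraries. Its levels were 13.8 TPM in three-leaf leaves, 0 at winter dormancy, 34.9 TPM at green-up and 51.1 TPM at jointing. Leaving winter aside, each value was above the one before, with green-up 2.53-fold (2.2 to 2.92) above the three-leaf library and jointing 1.46-fold (1.33 to 1.62) above green-up. Jointing exceeded the three-leaf library 3.7-fold (3.25 to 4.24).

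The strand opposite miR397a appeared under a different name in each library that listed it. miR397-5p was at 17.9 TPM (16.1 to 19.8) at winter dormancy and at 0 in the other libraries. miR397-3p was at 31.7 TPM (29.4 to 34.2) at jointing and at 0 in the other libraries. Since these names differ by 1 base of 21, and reads were assigned to names with up to 2 mismatches allowed, their sum was also taken: it was 0 at the three-leaf and green-up stages, 17.9 TPM at winter dormancy and 31.7 TPM at jointing. On the sum, jointing exceeded winter dormancy 1.77-fold (1.56 to 2.01), which is under the 2-fold limit, whereas by separate names miR397-5p counts as lower and miR397-3p as higher at jointing.

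Winter dormancy was therefore the library in which miR397a was listed at 0 and the opposite strand was listed, and at the three-leaf and green-up stages the reverse held. Jointing was the only library with both, and miR397a held 61.7% (59.4 to 64.0) of their sum there. Summed over all 3 names, miR397 showed no gap: it was 13.8 TPM in three-leaf leaves, 17.9 TPM at winter dormancy, 34.9 TPM at green-up and 82.8 TPM at jointing. The winter sum exceeded the three-leaf sum 1.3-fold (1.11 to 1.52), and the jointing sum was 6.0 times (5.29 to 6.83) the three-leaf sum. How reads were shared between the names in each library was not tested.

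miR408d, whose family targets plantacyanin-type proteins, was the least abundant member that was above 0 in every library. It was listed at 1.4 TPM in three-leaf leaves, 0.8 TPM at winter dormancy, 2.0 TPM at green-up and 5.6 TPM at jointing, which rest on 28, 16, 36 and 122 reads. The 3 earlier libraries were low, and only jointing was separated from all of them by counting. Winter dormancy against three-leaf gave 0.571 (0.285 to 1.08) and green-up against three-leaf gave 1.43 (0.854 to 2.45), and both intervals include 1. Green-up exceeded winter dormancy 2.5-fold (1.38 to 4.92), but at levels under 5 TPM this did not count as higher. Jointing exceeded green-up 2.8-fold (1.93 to 4.2), the three-leaf library 4.0-fold (2.67 to 6.35) and winter dormancy 7.0-fold (4.25 to 13). The jointing level itself had an interval of 4.64 to 6.67 TPM, which spans the 5 TPM limit. Its rank among the 371 known miRNAs was 227, 250, 219 and 224, where 240, 256, 241 and 294 of them were above 0. It thus stood near the end of the listed miRNAs in the 3 earlier libraries and further from the end at jointing.

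The call rule was then applied to the 8 members, with the share of all known miRNAs that it called given beside each count. Between winter dormancy and three-leaf, 2 members were higher, miR397-5p and miR528-5p, where 8.63% of the 371 known miRNAs were higher. miR397a was lower, where 7.82% were lower. Between green-up and winter dormancy, miR397a and miR528-5p were higher (12.1% of known miRNAs) and miR397-5p was lower (18.1%). The miR397 calls in both comparisons rest on a listed 0.

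Between jointing and green-up, 5 of the 8 members were higher and 0 were lower, where 26.1% of known miRNAs were higher and 9.43% lower. The 5 were miR397-3p, miR398f-5p, miR408d, miR528-5p and miR528a-3p, and these were also the 5 that stood more than 2-fold above every other library at jointing, where 18.3% of known miRNAs did so. miR397-3p is among them only against listed zeros, and 4 members stood above every other library when a listed 0 was treated as missing or when miR397-3p and miR397-5p were summed. Between jointing and three-leaf, 7 of 8 were higher and 0 were lower, where 24.8% were higher and 14.6% lower. The exception was miR397-5p, listed at 0 in both. Between any 2 libraries all 8 members differed, beside 59.8% of the known miRNAs. With a listed 0 treated as missing, 6 members were higher at jointing than at three-leaf, and 6 differed between any 2 libraries. The shares of all known miRNAs given above hold only for the rule with a listed 0 raised to 3 reads. Shares with zeros as missing or with summed names are not given, so those counts cannot be set beside them.

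The sizes of the differences can be set beside those of all known miRNAs above 0 in both libraries. Winter dormancy against three-leaf gave a median log2 difference of 0.26 over 5 members, beside 0.02 over 212 known miRNAs. Green-up against winter dormancy gave 0.81 over 5 members, beside -0.11 over 207. Jointing against green-up gave 1.58 over 6 members, beside 0.08 over 205 known miRNAs. Jointing against three-leaf gave 2.16, beside 0.04. All 6 members with a ratio were higher at jointing in both of these comparisons, where 56.6% and 52.2% of known miRNAs were. The 6 come from 4 families and include both strands of miR398 and of miR528, so they are not 6 separate observations. By the size of the jointing against three-leaf fold among the 205, miR528a-3p ranked 8, miR528-5p ranked 9, miR398f-5p ranked 18, miR408d ranked 26, miR397a ranked 28 and miR398a-3p ranked 37.

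**Figure D5:**
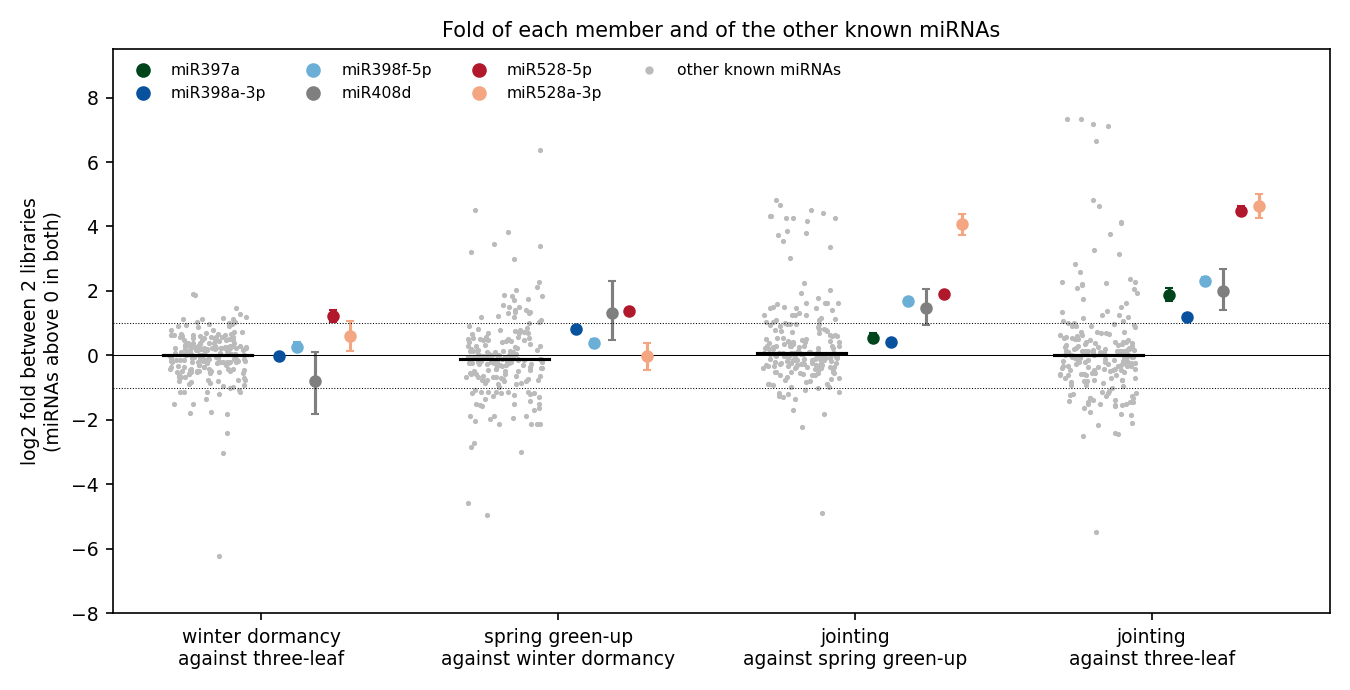
Log2 fold between 2 libraries (y axis) for the members above 0 in both, as coloured points with 95% counting intervals, and for the other known miRNAs above 0 in both, as grey points with their median as a black line, in 4 comparisons (x axis), with dotted lines at the 2-fold limits. All 6 members lie above 0 in both jointing comparisons, with medians of 1.58 and 2.16, and in winter dormancy against three-leaf they run from miR408d at -0.81 to miR528-5p at 1.22.

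The members did not share 1 course over the stages. Each course was described by its log2 TPM centred on its mean over the 4 libraries, and courses were compared by the root mean square difference over these 4 points. Among the members above 0 in every library, miR398f-5p and miR408d were closest at 0.41, followed by the strands of miR398 at 0.5. The strands of miR528 were 0.85 apart, and miR398a-3p and miR528a-3p were farthest apart at 1.47. For miR398f-5p the closest member was thus of another family, and miR528-5p lay as near to miR398f-5p, at 0.86, as to its own opposite strand. With 4 libraries these distances are descriptions, and those of miR408d carry the counting error of few reads.

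Among the 159 other known miRNAs above 0 in every library and over 5 TPM in at least 1, the course most like that of miR398f-5p was that of miR393-5p, the regulator of auxin receptors. miR393-5p was at 270.4, 317.8, 451.3 and 1273.7 TPM in stage order, and the distance was 0.06. miR531 at 0.16 and miR9653a-3p at 0.36 came next. For miR398a-3p the closest were miR1117 at 0.13, miR167a at 0.15 and miR4375 at 0.19. miR167a, which targets auxin response factors, was at 2044.6, 2377.5, 3190.6 and 4312.8 TPM.

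For miR408d the closest were miR9653a-3p at 0.12, miR9656-3p at 0.23 and miR9672b at 0.37. miR9653a-3p was at 45.0, 31.2, 78.4 and 219.3 TPM, with its lowest value also in winter. The winter and three-leaf values of miR408d were not told apart by counting. The courses of miR528 had no such close neighbours. For miR528-5p the nearest was miR9676-5p at 0.58, followed by miR9672a-3p at 0.68 and miR9656-3p at 0.81. For miR528a-3p they were miR1033a at 0.44, miR172a-5p at 0.66 and miR9676-5p at 0.8. miR1033a, at 88.2, 65.9, 62.1 and 1563.3 TPM, was also low before a high jointing value, but it was lower at winter dormancy than at the three-leaf stage, where miR528a-3p was higher. The miR397 entries could not be compared in this way because each is listed at 0 somewhere.

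The families of sulphur and phosphate supply served as a comparison list of nutrient miRNAs. miR395 targets genes of sulphate assimilation, miR399 the phosphate regulator PHO2, miR827 phosphate transporters of the SPX type, and miR2111 the mRNAs of F-box proteins. Of their 6 entries, 5 differed between some pair of libraries, beside 59.8% of all known miRNAs. Those of miR395a and miR2111a-3p rest on listed zeros only. At jointing, 2 entries (miR395a and miR827) stood more than 2-fold above every other library, beside 18.3% of known miRNAs. Between jointing and three-leaf, 2 were higher and 1 was lower, beside 7 and 0 of the 8 copper miRNAs and 24.8% and 14.6% of all known miRNAs. Only miR399b and miR827 were above 0 in both libraries of the jointing comparisons, and both were higher at jointing, with median log2 differences of 1.71 against green-up and 1.03 against three-leaf, beside 1.58 and 2.16 for the copper miRNAs. miR827 was at 138.6, 60.7, 89.8 and 310.7 TPM and miR399b at 148.6, 146.9, 88.9 and 276.8 TPM. Both had their low before jointing, at winter dormancy and at green-up, where the sums of miR397, miR398 and miR528 were not below the three-leaf level. miR408d, like miR827, was lowest at winter dormancy, though its interval against three-leaf included 1. miR395b went the other way, at 21.6, 15.4, 9.4 and 0 TPM, and miR395a was listed only at jointing, at 7.6 TPM. No library listed both miR395 names. Their calls at jointing, 1 higher and 1 lower, therefore rest on listed zeros, and their sum was not examined. miR2111a-3p was listed only at green-up, at 1385.5 TPM, and miR2111a only at jointing, at 0.9 TPM. The copper families miR857 and miR1444 of other plants were not found in the table.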

How the data were processed

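Small RNAs of 18 to 30 nt were sequenced from the 4 pooled libraries. After adaptor trimming and removal of reads from other RNA classes, the authors assigned reads to plant miRNAs of miRBase release 21, allowing 2 mismatches, and ran MIREAP on the rest to predict miRNAs. Values were deposited as RPM over mapped reads, rounded to 1 decimal, and are called TPM here. Mapped reads per library were taken from the study's read statistics, and rounding moves an estimated read count by at most 1.09 reads.

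The known table holds 373 entries, and 2 names that occur more than once were counted once, which left 371. Ratios have 95% Clopper-Pearson intervals from the conditional binomial distribution of the reads, and strand shares have Clopper-Pearson intervals, with odds ratios from Fisher's exact conditional distribution. No p-value is given with 1 library per stage. All members were named, with novel_miR692, the nutrient list and the 3 closest courses of each member above 0 in every library. Members, lists and rules were chosen with earlier results of these data known.

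Alternatives were a pseudocount of 1 or 0.1 TPM, no level filter, a level of 50 TPM, a fold of 3, scaling by the total or by median-of-ratios over 179 miRNAs, zeros as missing, family sums, miR397-3p with miR397-5p summed, and the rounding limits. Target predictions, cleavage assays and expression assays by PCR were not analysed here, although the paper reports that its PCR assay also showed miR408d induced at jointing. Python 3.11.15, numpy 2.4.6, pandas 2.3.3, scipy 1.17.1 and matplotlib 3.10.9 were used.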

Additional observations from a re-analysis of the deposited data

How the results depend on the processing

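The counts of members that differed depended on the level limit and, most of all in the comparisons with winter dormancy, on listed zeros. When a listed 0 was treated as missing, the count fell from 3 to 1 for winter dormancy against three-leaf and from 3 to 1 for green-up against winter dormancy. The other counts fell by a smaller factor. They were 4 (from 5) for jointing against green-up, 6 (from 7) for jointing against three-leaf and 6 (from 8) between any 2 stages. With a level of more than 50 TPM the counts were 0 (from 3), 1 (from 3) and 3 (from 5) for the consecutive stages, 5 (from 8) between any 2 stages, and 3 (from 5) above every other library at jointing. With the 4 family sums in place of the 8 members no count can exceed 4, so these counts are not comparable with those of members: they were 1, 1 and 3 of 4 for the consecutive stages, 4 of 4 for jointing against three-leaf, 4 of 4 between any 2 stages, and 3 of 4 above every other library at jointing. Every other alternative kept each count within 1.5 times. All of these are counts of members, and the share of all known miRNAs called under each alternative is not given. They show how the counts depend on the rule, not how the members compare with other known miRNAs. The median listed level in a library was 28.7 to 36.8 TPM, so the limit of 50 TPM also sets aside many other known miRNAs. No called fold changed direction. Of 110 alternative values of 22 log2 folds, 13 left the counting interval, 11 of them under scaling by the total, and 2 changed sign, both of miR528a-3p between green-up and winter dormancy. Rounding moved none of the 8 strand shares of miR398 and miR528 beyond its interval. Depth limits miR408d, with 16 to 122 reads a library, and the names listed at 0. No paired analysis was possible because each stage has 1 library.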
